A study of Mus musculus with 16 samples.

Results

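Monocyte-derived macrophage genes are genes carried by macrophages that enter a tumour from the blood, and 10 of them were followed here: Ccr2, Itga4, Plac8, Tgfbi, Fn1, Thbs1, Hp, Vim, S100a4 and S100a6. A gene was read from the probe sets of an Affymetrix mouse 3' expression array that are annotated to its symbol alone, which gave 21 probe sets for the 10 genes. Where a gene had several, the brightest on average stood for it, and the other 11 served as a check. The 10 genes belong to 12394 genes measured on 22690 probe sets.

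The study asked how an inhibitor of the colony-stimulating factor 1 receptor (CSF-1R) alters tumour-associated macrophages of mouse glioma. Each of 16 arrays holds RNA of CD11b-positive, Gr1-negative cells sorted from the tumour of 1 mouse. There were 8 BLZ945 mice, given the inhibitor by gavage daily for 7 days, and 8 Vehicle mice, given 20% captisol in the same way. The dose is labelled as 200 mg, with no body weight.

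All 16 mice, of both groups, had the genotype Nestin-Tv-a;Ink4a/Arf-/- on a mixed background and carried the same kind of tumour. DF-1 cells releasing the RCAS-PDGF-B-HA virus were injected into the brain at 5 to 6 weeks of age, and the Nestin promoter drives the receptor that lets this avian virus enter a cell. The 8 BLZ945 mice were 13.14 weeks old (mice 4, 5, 7 and 8) or 11.29 weeks old (mice 1, 2, 3 and 6). Of these 8, 5 were female, 3 of the 4 at 13.14 weeks and 2 of the 4 at 11.29 weeks. The 8 Vehicle mice were 11.29 weeks old (mice 4 to 7), 11.43 weeks old (mice 3 and 8) or 12.29 weeks old (mice 1 and 2). Of these 8, 4 were female, 1 of the 4 at 11.29 weeks, 2 of 2 at 11.43 weeks and 1 of 2 at 12.29 weeks. The labelled initial tumour volume, which has no unit, was 41.3 to 132.3 in the 8 BLZ945 mice and 11.9 to 27.3 in the 6 Vehicle mice that have one. The protocol set 4.5 to 40 mm3 for entry, so the BLZ945 volumes lie above that range if their unit is mm3. Agent, age and volume therefore overlap only in part: 11.29 weeks is the 1 age that holds both agents, and the volumes of the groups do not overlap.

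Blood monocytes leave the bone marrow and enter inflamed tissue or tumours when the chemokine receptor CCR2 meets its ligand CCL2, and they then mature into macrophages. In the brain such cells join microglia, the resident macrophages, which arise before birth and keep themselves without monocytes. Both kinds of cell carry CSF-1R, and most of the genes followed here are ones that recruited macrophages of mouse brain tumours are known to hold at higher levels than microglia.

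The sorted cells carried macrophage genes at high levels. Csf1r, the target of BLZ945, averaged 13.66 ± 0.12 in BLZ945 mice and 13.61 ± 0.14 in Vehicle mice on the log2 scale (SD, n = 8 each), and the complement gene C1qa averaged 13.64 ± 0.14 and 13.54 ± 0.14 in the same order. The mean of 10 macrophage markers lay between 11.54 and 11.94 in BLZ945 mice and between 11.62 and 12.04 in Vehicle mice. Itgam, which encodes the sorting antigen CD11b, was the 1 marker of the 10 that passed the test. It was 8.90 ± 0.63 in BLZ945 mice and 10.07 ± 0.51 in Vehicle mice (log2 difference -1.17, adjusted p 0.00807). In limma 4 of the 10, and 22.6% of all genes, had an unadjusted p under 0.05. Besides Itgam these were Aif1 (-0.33), Cd68 (0.41) and Mertk (0.43), which were named after their values were seen. Gr1 is the name of the neutrophil antigen Ly6G, and antibodies sold under it can also bind Ly6C of inflammatory monocytes, so the gate could have removed some of the cells these genes mark. This was not tested, and the antibody clone is not given in the sources used here. Arrays correlated with each other at 0.937 or more.

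Between BLZ945 and Vehicle mice, Tgfbi, Hp and Ccr2 fell, by 3.43-fold, 1.78-fold and 3.14-fold, and no member rose. A gene was called when its limma p-value, adjusted over all 12394 genes, was under 0.05: 3 of the 10 members were called lower, where 5.34% of all genes were called lower, 2.6% higher and 7.94% in either direction. Of the 984 genes called, 67.3% were lower, a share that became 57.3% of 1142 with quantile normalization applied to the deposited values and 47.3% of 1644 with each array's SD as a covariate. The difference was below 0 for 9 of 10 members, where it was below 0 for 38.9% of all genes, and the members' median difference was -0.80 against 0.07 over all genes. The members and the other gene lists were chosen with earlier results of these data known, so these contrasts are descriptions and no independent test. In bulk RNA of a sorted population, fewer cells of a type and less RNA of the gene per cell cannot be told apart. The groups overlapped for each of the 10 members, whereas 1.04% of all genes lay lower in every BLZ945 mouse than in every Vehicle mouse.

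Ccr2, the receptor that draws monocytes towards CCL2, had log2 values between 4.88 and 8.45 in BLZ945 mice, with a median of 7.06, and between 7.35 and 9.79 in Vehicle mice, with a median of 8.53. In 5 of the 8 BLZ945 mice it was below every Vehicle mouse: the 4 of 13.14 weeks and mouse 3. The means were 6.92 ± 1.34 in BLZ945 mice and 8.57 ± 0.89 in Vehicle mice, a log2 difference of -1.65 with an SE of 0.50 (95% interval -2.69 to -0.61, adjusted p 0.0484). The call rested on single mice. With 1 mouse left out at a time the difference ran from -1.87 to -1.36 and the adjusted p from 0.0272 to 0.0945, and the call was lost in 11 of 16 runs, those without BLZ945 mouse 3, 4, 5, 7 or 8 or without Vehicle mouse 1, 2, 4, 5, 7 or 8. It was also lost without the 4 BLZ945 mice of 13.14 weeks, where the difference was -0.63 (adjusted p 0.562).

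Plac8, a small cysteine-rich protein abundant in inflammatory monocytes, had values between 6.53 and 9.87 in BLZ945 mice (median 7.96) and between 8.79 and 11.91 in Vehicle mice (median 9.36). Its means were 8.09 ± 1.18 and 9.56 ± 1.03 in BLZ945 and Vehicle mice (log2 difference -1.48, SE 0.48, adjusted p 0.0676), which did not pass the test over 16 mice. It passed in 2 of 16 runs that left out 1 mouse, without BLZ945 mouse 1 (-1.73, adjusted p 0.0279) and without BLZ945 mouse 6 (-1.64, adjusted p 0.0416). The 5 BLZ945 mice below every Vehicle mouse were again the 4 of 13.14 weeks and mouse 3.

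Itga4, the alpha 4 integrin subunit with which monocytes hold on to VCAM-1 on vessel walls and to fibronectin, had values between 4.87 and 6.62 in BLZ945 mice (median 5.62) and between 5.51 and 7.12 in Vehicle mice (median 6.22). The means were 5.76 ± 0.66 and 6.39 ± 0.55 in BLZ945 and Vehicle mice, with a log2 difference of -0.63 (SE 0.27, adjusted p 0.173). In 4 of 8 BLZ945 mice, those of 13.14 weeks, Itga4 was below every Vehicle mouse.

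Of the members that make extracellular matrix, Tgfbi had the smallest p-value and ranked 37 of 12394 genes. It encodes a secreted protein that TGF-beta induces and that binds integrins and collagen. Its values lay between 9.39 and 11.35 in BLZ945 mice (median 9.99) and between 11.33 and 12.90 in Vehicle mice (median 11.74). In 7 of 8 BLZ945 mice it was below every Vehicle mouse, and BLZ945 mouse 1, at 11.35, lay just above the lowest Vehicle mouse, at 11.33. The means were 10.12 ± 0.56 in BLZ945 mice and 11.89 ± 0.50 in Vehicle mice, a log2 difference of -1.78 (SE 0.24, 95% interval -2.28 to -1.27, adjusted p 0.000211). The call held in each of the 16 runs without 1 mouse, with differences from -1.95 to -1.63. It was lost with the labelled tumour volume as a covariate over 14 mice (-0.92, adjusted p 0.207) and in the 7 males alone (-1.89, adjusted p 0.106).

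Because Tgfbi carries the clearest difference, its promoter is shown: the 250 bases before the gene's start in RefSeq on build GRCm38.p6, plus strand, chr13:56609336-56609585. It was searched on both strands for 6 motifs: TGANTCA of AP-1, TTGCNNAA of C/EBP, GAGGAA of PU.1, CAGACA of SMAD proteins, GGGCGG of SP1 and KLF proteins, and TATAAA of the TATA box. Capitals mark the matches.
Tgfbi: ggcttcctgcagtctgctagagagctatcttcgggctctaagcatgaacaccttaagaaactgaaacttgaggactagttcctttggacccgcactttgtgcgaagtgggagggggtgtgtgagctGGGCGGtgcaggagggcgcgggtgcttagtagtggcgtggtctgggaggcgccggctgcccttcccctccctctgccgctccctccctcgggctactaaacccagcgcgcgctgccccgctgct
The 1 match, GGGCGG, begins 124 bases before the start. Of 32851 mouse promoters of the same length, 32.7% hold GGGCGG, 23.3% GAGGAA, 17.1% CAGACA, 12.4% TATAAA, 9.56% TTGCNNAA and 6.75% TGANTCA.

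Fn1 encodes fibronectin, the matrix glycoprotein that integrins of the alpha 4 and alpha 5 kind bind. Its values lay between 9.15 and 12.41 in BLZ945 mice (median 11.11) and between 11.61 and 12.87 in Vehicle mice (median 11.98). The means were 11.20 ± 1.09 and 12.09 ± 0.43 in BLZ945 and Vehicle mice (log2 difference -0.89, SE 0.37, adjusted p 0.156). BLZ945 mice 1, 2, 3, 6 and 7 were below every Vehicle mouse. BLZ945 mice 4, 5 and 8, all females of 13.14 weeks, had 12.25, 12.19 and 12.41, within the Vehicle range. Mouse 7, a male of 13.14 weeks, had 10.61, and the parts of age and sex in this split were not tested.

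Thbs1, thrombospondin 1, which binds CD36 and CD47 and activates latent TGF-beta, showed no difference that could be told from 0. Its values lay between 6.18 and 8.60 in BLZ945 mice (median 7.25) and between 6.29 and 8.75 in Vehicle mice (median 7.37). The log2 difference was 0.02 (SE 0.35, adjusted p 0.976), and the 95% interval of -0.71 to 0.76 leaves room for a shift in either direction.

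Hp encodes haptoglobin, which binds free haemoglobin and is cleared through the scavenger receptor CD163. It had log2 values between 4.30 and 5.27 in BLZ945 mice (median 4.90) and between 4.92 and 6.33 in Vehicle mice (median 5.85). The means were 4.78 ± 0.38 in BLZ945 mice and 5.61 ± 0.53 in Vehicle mice, a log2 difference of -0.83 (SE 0.21, adjusted p 0.0201), and the call held in each of the 16 runs without 1 mouse. It was lost with the age cohort as a covariate (-0.74, adjusted p 0.0768), a fit whose difference is that of the 11.29-week mice. The call was also lost with tumour volume (-0.51, adjusted p 0.466) and within females or males alone (-0.73 and -1.02). The 4 BLZ945 mice of 11.29 weeks were below every Vehicle mouse, and the 4 of 13.14 weeks lay among the lower Vehicle values. Array medians lay between 5.74 and 5.87, so this probe set read near or below the middle of every array's values, except in the brightest Vehicle mice.

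Vim encodes vimentin, the intermediate filament protein of motile and mesenchymal cells. It had values between 9.52 and 10.83 in BLZ945 mice (median 10.13) and between 10.17 and 12.19 in Vehicle mice (median 10.82). The log2 difference was -0.77 (SE 0.28, adjusted p 0.101), and 5 of 8 BLZ945 mice were below every Vehicle mouse.

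S100a4 and S100a6 encode small calcium-binding proteins of the S100 family, and the genes are neighbours on chromosome 3 with S100a5 between them. S100a4, known for binding non-muscle myosin in migrating cells, had values between 5.46 and 8.43 in BLZ945 mice (median 6.45) and between 6.84 and 9.72 in Vehicle mice (median 7.20), with a log2 difference of -0.68 (SE 0.46, adjusted p 0.386). S100a6, or calcyclin, had values between 5.98 and 9.41 in BLZ945 mice (median 8.55) and between 7.03 and 9.80 in Vehicle mice (median 9.10), with a log2 difference of -0.55 (SE 0.47, adjusted p 0.489). Leaving out 1 mouse moved S100a4 between -0.90 and -0.37, the last without Vehicle mouse 2, and S100a6 between -0.79 and -0.23, the last without BLZ945 mouse 5. Neither passed the test, and BLZ945 mice 2, 6 and 1 had S100a4 values above all Vehicle mice other than mouse 2. Of 9 other S100 genes measured, 0 passed limma's adjusted test and 0 had an unadjusted p under 0.05, with a median difference of 0.03. S100a10, the annexin A2 partner, was among the 9 and S100a11 was not analysed here.

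The promoters of this neighbouring pair are shown together. They are the 250 bases before each start on GRCm38.p6, plus strand, chr3:90603520-90603769 for S100a4 and chr3:90612644-90612893 for S100a6, with the same motifs in capitals.
S100a4: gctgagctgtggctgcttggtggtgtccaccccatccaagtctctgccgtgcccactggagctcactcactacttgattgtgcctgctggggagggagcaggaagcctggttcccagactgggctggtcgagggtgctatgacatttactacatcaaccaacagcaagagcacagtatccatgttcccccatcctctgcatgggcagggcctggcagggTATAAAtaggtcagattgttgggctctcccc
S100a6: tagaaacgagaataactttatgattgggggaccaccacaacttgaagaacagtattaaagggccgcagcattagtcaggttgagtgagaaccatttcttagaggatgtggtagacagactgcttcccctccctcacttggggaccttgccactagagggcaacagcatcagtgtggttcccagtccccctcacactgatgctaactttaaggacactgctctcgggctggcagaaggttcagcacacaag
The S100a4 window holds TATAAA, beginning 31 bases before the start. The S100a6 window holds none of the 6 letter strings.

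**Figure D1:**
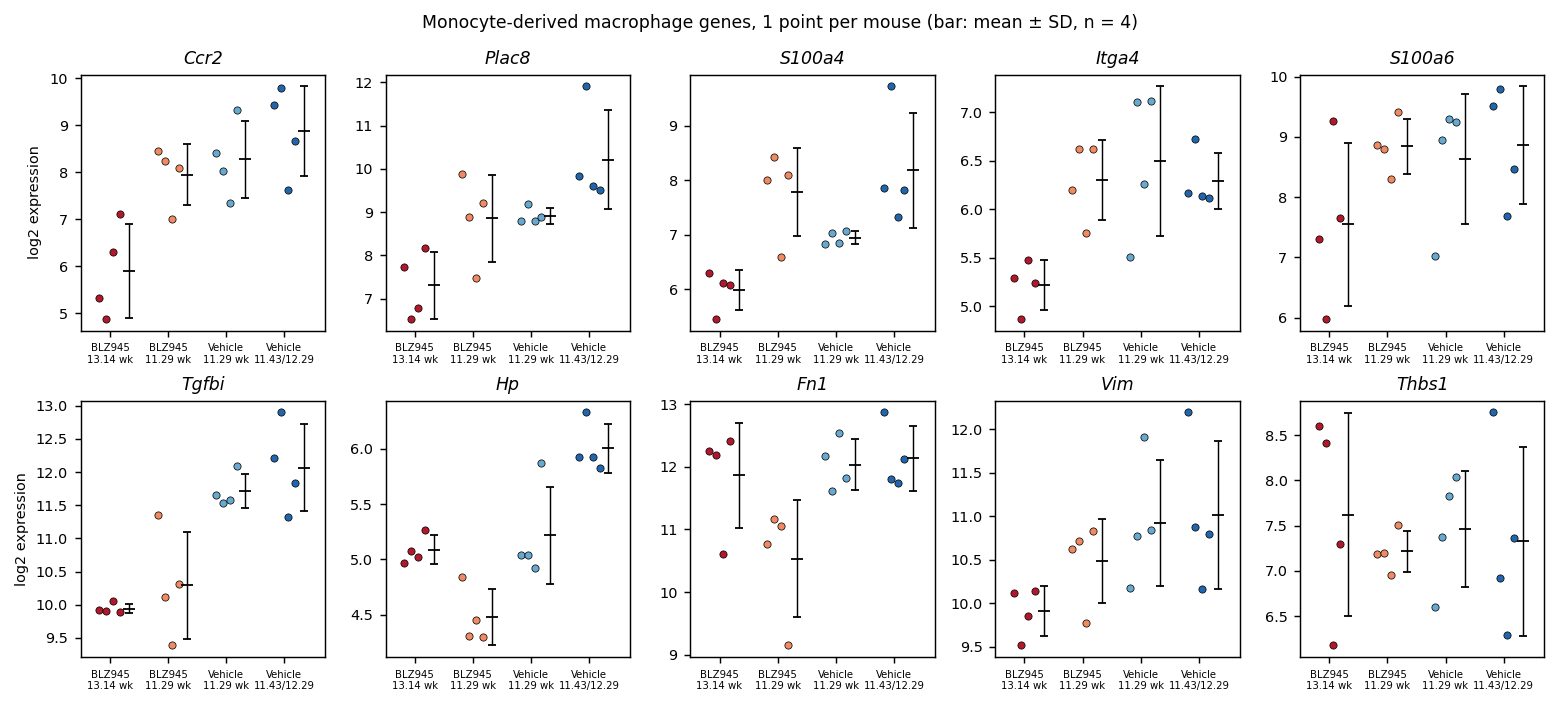
Log2 expression (y axis, a scale of its own per gene) of the 10 monocyte-derived macrophage genes, 1 point per mouse, with BLZ945 mice of 13.14 weeks, BLZ945 mice of 11.29 weeks, Vehicle mice of 11.29 weeks and Vehicle mice of 11.43 or 12.29 weeks from left to right and bars for the mean ± SD (n = 4). Ccr2, Plac8, S100a4 and Itga4 had their lowest means in the BLZ945 mice of 13.14 weeks, while Tgfbi was low in BLZ945 mice of both ages and Fn1 and Hp were lowest in those of 11.29 weeks.

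Among the 8 mice of 11.29 weeks, where age does not differ between the agents, Tgfbi, Hp and Fn1 were lower in every BLZ945 mouse than in every Vehicle mouse, and the remaining 7 members overlapped. Groups that do not overlap in this direction were found for 5.63% of all genes. With 4 mice a group, limma called 0 of 10 members and 89 of 12394 genes (0.718%). An unadjusted p under 0.05 was found for 4 members and for 15.2% of all genes. The members' median difference was -0.29, against 0.06 over all genes.

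Tgfbi was 11.35, 10.11, 9.39 and 10.32 in the BLZ945 mice of 11.29 weeks (mice 1, 2, 3 and 6) and 11.65, 11.54, 11.58 and 12.10 in the Vehicle mice of that age (mice 4 to 7). The log2 difference was -1.43 (SE 0.35, 95% interval -2.21 to -0.65, adjusted p 0.112). With 1 mouse left out at a time it ran from -1.78 to -1.13 and its adjusted p from 0.0321 to 0.27. It was called in 1 of 8 runs, that without BLZ945 mouse 1 (-1.78). A fit that kept all 16 mice in 4 groups of agent and age gave the same -1.43 with an adjusted p of 0.0394. The difference was thus -1.43 at the shared age and -1.78 over all 16 mice.

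Hp was 4.84, 4.31, 4.45 and 4.30 in the BLZ945 mice of 11.29 weeks and 5.04, 5.04, 4.92 and 5.87 in the Vehicle mice of that age, a log2 difference of -0.74 (SE 0.23, adjusted p 0.18). Fn1 was 10.77, 11.16, 11.05 and 9.15 in those BLZ945 mice and 12.17, 11.61, 12.54 and 11.83 in those Vehicle mice, a log2 difference of -1.50 (SE 0.41, adjusted p 0.143). Fn1 was called lower when the 4 BLZ945 mice of 13.14 weeks were left out and all 8 Vehicle mice kept (-1.55, adjusted p 0.0296).

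For Ccr2, the age-matched difference was -0.33 (SE 0.42, 95% interval -1.27 to 0.62, adjusted p 0.717). The BLZ945 mice of 11.29 weeks had 8.45, 8.24, 7.01 and 8.10 and the Vehicle mice of that age 8.41, 8.03, 7.35 and 9.32, so the groups lay over each other, and without Vehicle mouse 7 the difference was 0.02. Plac8 differed by -0.05 (adjusted p 0.96) and Itga4 by -0.20 (adjusted p 0.803). Plac8 turned to 0.04 without Vehicle mouse 5 and to 0.41 without BLZ945 mouse 3, and Itga4 to 0.00 and 0.01 without Vehicle mouse 5 or 7. Vim differed by -0.44 (adjusted p 0.572) and Thbs1 by -0.25 (adjusted p 0.68).

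S100a4 was higher in BLZ945 mice at this age in 3 of 4 animals, with 8.01, 8.43, 6.60 and 8.09 against 6.84, 7.04, 6.85 and 7.07 in Vehicle mice. The log2 difference of 0.83 (SE 0.34, adjusted p 0.289) did not pass the test. With 1 mouse left out at a time it ran from 0.62 to 1.23 and its adjusted p from 0.0368 to 0.553. It was called in 1 of 8 runs, that without BLZ945 mouse 3 (1.23). S100a6 differed by 0.21 (SE 0.47, adjusted p 0.84), and by -0.32 without Vehicle mouse 4. Both differences have the opposite sign to those over 16 mice.

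**Figure D2:**
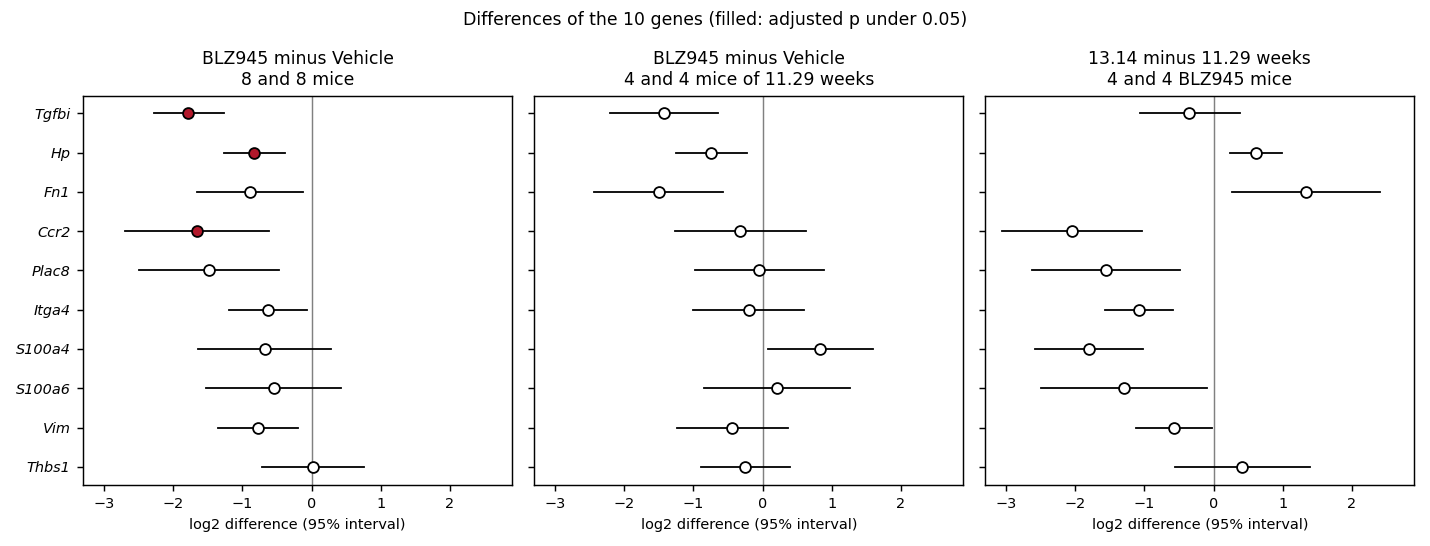
Log2 differences of the 10 genes with 95% intervals (x axis) for BLZ945 minus Vehicle over 8 and 8 mice, for BLZ945 minus Vehicle over 4 and 4 mice of 11.29 weeks, and for BLZ945 mice of 13.14 weeks minus those of 11.29 weeks, with filled points for an adjusted p under 0.05. Tgfbi, Hp and Ccr2 are filled in the left panel, and Ccr2 stands at -1.65, -0.33 and -2.05 in the 3 panels.

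Within the BLZ945 mice, those of 13.14 weeks had lower Ccr2, S100a4, Plac8, S100a6 and Itga4 values than those of 11.29 weeks, by 1.08 to 2.05 on the log2 scale, but 0 of 10 members passed limma's adjusted test. That test called 5 of 12394 genes (0.0403%), while 8 members and 18.7% of all genes had an unadjusted p under 0.05. S100a4 and Itga4 were lower in every mouse of 13.14 weeks than in every mouse of 11.29 weeks, as were 4.43% of all genes, and Hp was higher in every one, as were 4.6% of all genes.

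Ccr2 was 5.32, 4.88, 6.30 and 7.11 in BLZ945 mice 4, 5, 7 and 8, of 13.14 weeks, and 8.45, 8.24, 7.01 and 8.10 in mice 1, 2, 3 and 6, of 11.29 weeks (log2 difference -2.05, SE 0.46, adjusted p 0.141). S100a4 was 6.30, 5.46, 6.11 and 6.08 in the older mice and 8.01, 8.43, 6.60 and 8.09 in the younger ones (-1.80, SE 0.35, adjusted p 0.141). With 1 mouse left out at a time, S100a4 ran from -2.19 to -1.58 and its adjusted p from 0.0107 to 0.345. It was called in 1 of 8 runs, that without BLZ945 mouse 3 (-2.19). Itga4 was 5.29, 4.87, 5.48 and 5.24 in the older mice and 6.20, 6.62, 5.76 and 6.62 in the younger ones (-1.08, SE 0.22, adjusted p 0.141). Mouse 3 was the lowest of the younger mice in all 3 genes.

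Plac8 differed by -1.55 (adjusted p 0.184), S100a6 by -1.29 (adjusted p 0.248) and Vim by -0.58 (adjusted p 0.25) between these ages. Tgfbi did not separate them: it was 9.92, 9.91, 10.05 and 9.89 in the older mice, a spread of 0.07 (SD), against 11.35, 10.11, 9.39 and 10.32 in the younger ones, and the difference of -0.35 (adjusted p 0.563) became 0.01 without BLZ945 mouse 1. Hp and Fn1 ran the other way, at 0.61 (adjusted p 0.164) and 1.33 (adjusted p 0.215). The labels tie 13.14 weeks to BLZ945 alone, so in the comparison of 16 mice this age and the agent cannot be told apart.

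Dendritic cell markers differed along the same split. All 7 measured of 9 listed had lower means in BLZ945 mice of 13.14 weeks than in those of 11.29 weeks, as had 5547 of 12394 genes. In limma 5 of the 7, and 18.7% of all genes, had an unadjusted p under 0.05. Only 1 was called, the lymph node homing receptor Ccr7 (log2 difference -1.54, SE 0.18, adjusted p 0.0195). Between the agents 0 of the 7 were called, over 16 mice or at 11.29 weeks. There 4 of the 7 had an unadjusted p under 0.05 each time, with median differences of 0.30 and 0.97. Ccr7 was named after its value was seen. The mean of the 7 markers was 5.33 to 5.72 in BLZ945 mice of 13.14 weeks and 6.12 to 7.01 in those of 11.29 weeks, against 5.47 to 6.16 in Vehicle mice of 11.29 weeks and 5.28 to 6.33 in the older Vehicle mice. Their part in the differences of Ccr2, S100a4, Plac8 and Itga4 was not tested.

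In the Vehicle mice, those of 11.43 or 12.29 weeks had higher values than those of 11.29 weeks for 8 of 10 members, again with 0 called by limma. The difference was below 0 for the other 2 members and for 50.8% of all genes. No gene of the 12394 was called (0%), while 3 members and 3100 genes had an unadjusted p under 0.05. Plac8 was 9.83, 11.91, 9.60 and 9.52 in Vehicle mice 1, 2, 3 and 8 and 8.79, 9.19, 8.79 and 8.88 in mice 4 to 7 (log2 difference 1.30, adjusted p 0.147). S100a4 differed by 1.23 (adjusted p 0.145) and Hp by 0.79 (adjusted p 0.125). For Ccr2, S100a4 and Plac8 the older mice thus had lower means among BLZ945 animals and higher means among Vehicle animals, with other ages in each; the difference between these age effects was not tested.

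By sex, 0 of 10 members were called with the agent as a covariate, where limma called 4 of 12394 genes (0.0323%). Fn1 was higher in the 9 females than in the 7 males by 0.93 (SE 0.31, adjusted p 0.484), and Itga4 was lower, at 5.78 ± 0.52 in females and 6.45 ± 0.69 in males (-0.60, SE 0.25, adjusted p 0.504). These were the 2 members with an unadjusted p under 0.05, where 9.8% of all genes had one. The test of whether the agent difference itself depends on sex called 0 members and 0 genes (0%), with 0 members and 414 genes at an unadjusted p under 0.05.

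Once each agent's mean was subtracted, the members varied together from mouse to mouse in part. Over the 45 pairs of members the median Pearson r was 0.37, from -0.66 for Itga4 with Fn1 to 0.92 for S100a4 with Plac8, and 30 pairs were above 0. These are descriptions over 16 mice. With the means of agent and age subtracted, the median was 0.35, from -0.43 to 0.85, and 35 pairs were above 0. S100a4 and its neighbour S100a6 correlated at 0.62 with agent means subtracted, below the 0.92 of S100a4 with Plac8 and the 0.74 of S100a6 with Itga4.

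Ccr2 was compared with each of the other 9 members in this way. S100a4 had the highest Pearson r, with r = 0.81 and Spearman's rho = 0.76 over 16 mice (permutation p 0.00026 and 0.00252, adjusted over the 9 relations to 0.00234 and 0.011), and r was 0.79 without BLZ945 mice 4 and 5, the farthest from the median of Ccr2. With the means of agent and age subtracted, r was 0.63 and rho 0.56 (adjusted permutation p 0.0316 and 0.0875). Plac8 had r = 0.76 and the highest rank correlation, rho = 0.78 (adjusted permutation p 0.00396 and 0.00936), and 0.62 and 0.60 with the age means subtracted too (adjusted permutation p 0.0596 and 0.0875).

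Tgfbi had r = 0.66 and rho = 0.68 with Ccr2 (adjusted permutation p 0.016 and 0.011), and within agent and age it had the highest values of the 9, with r 0.67 and rho 0.67 (adjusted permutation p 0.0133 and 0.0542). Itga4 and S100a6 had r of 0.66 each, which were 0.53 and 0.45 without BLZ945 mice 4 and 5, and 0.44 and 0.54 within agent and age. Vim had r = 0.45, Fn1 -0.46, Thbs1 -0.16 and Hp 0.03, with adjusted permutation p of 0.101, 0.174, 0.629 and 0.908. Hp had r = 0.60 within agent and age (adjusted permutation p 0.0516). Within agent and age, then, the r of S100a4 and Tgfbi passed 0.05 after adjustment, the rank correlation of none did, and each age group of 4 mice is too small for a value of its own.

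The genes whose values followed Ccr2 most closely among 12384 non-members, with agent means subtracted, were Plbd1 (r = 0.82), Olfm1 (0.81), Mndal (0.79), Cyfip2 (0.79) and Trps1 (0.79), where the median gene had r = -0.06. With the means of agent and age subtracted, r was 0.61, 0.64, 0.61, 0.65 and 0.67 in the same order. The genes closest to the mean of the 10 members, with agent means subtracted, were Ahnak (0.91), which is also on the list of other monocyte genes, Mndal (0.86), Cox17 (0.84), Emb (0.84) and Slfn4 (0.81). Their r was 0.85, 0.81, 0.77, 0.79 and 0.89 with the age means subtracted too. Of the 9 genes named for either pattern, Mndal, an interferon-inducible nuclear protein of the mouse, was lower in BLZ945 mice at 7.94 ± 1.05 against 9.45 ± 0.80 in Vehicle mice (log2 difference -1.50, adjusted p 0.0287). Trps1, a GATA-type zinc finger repressor, was 4.28 ± 0.47 in BLZ945 mice and 5.85 ± 0.36 in Vehicle mice (-1.57, adjusted p 0.000116), and was called at 11.29 weeks too (-1.23, adjusted p 0.0483). Emb and Slfn4 were also called lower over 16 mice (-1.28, adjusted p 0.00618, and -1.74, adjusted p 0.045), and the other 5 were not called.

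Of 27 other genes of monocytes and recruited macrophages, 22 were measured. Over 16 mice 5 of them were called lower and 0 higher, where 5.34% of all genes were called lower. Their median difference was -0.49. The count was 3 to 6 with 1 mouse left out, and 3 without BLZ945 mouse 3, 5, 7 or 8, without Vehicle mouse 1, 5, 6 or 7, or with the array SD as a covariate. Ccr1, another chemokine receptor of monocytes, fell most, with 7.65 ± 1.20 in BLZ945 mice and 10.03 ± 0.51 in Vehicle mice (log2 difference -2.38, adjusted p 0.00112). Ifitm6, an interferon-induced membrane protein gene, was 5.19 ± 1.22 in BLZ945 mice and 7.24 ± 1.05 in Vehicle mice (-2.05, adjusted p 0.0147). The lectins Lgals1 (galectin 1) and Clec4e (Mincle) fell by 1.01 and 1.05 (adjusted p 0.0144 and 0.0294), and Anxa2 (annexin A2) by 0.56 (adjusted p 0.0415).

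At 11.29 weeks limma called 0 of these 22 genes, and their median difference was -0.13. An unadjusted p under 0.05 was found for 3 of the 22 and for 15.2% of all genes. Without the BLZ945 mice of 13.14 weeks 1 of the 22 was called. The other 5 listed genes were not analysed here. The mean of the 22 was 7.22 to 8.69 in BLZ945 mice and 7.70 to 9.11 in Vehicle mice.

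**Figure D3:**
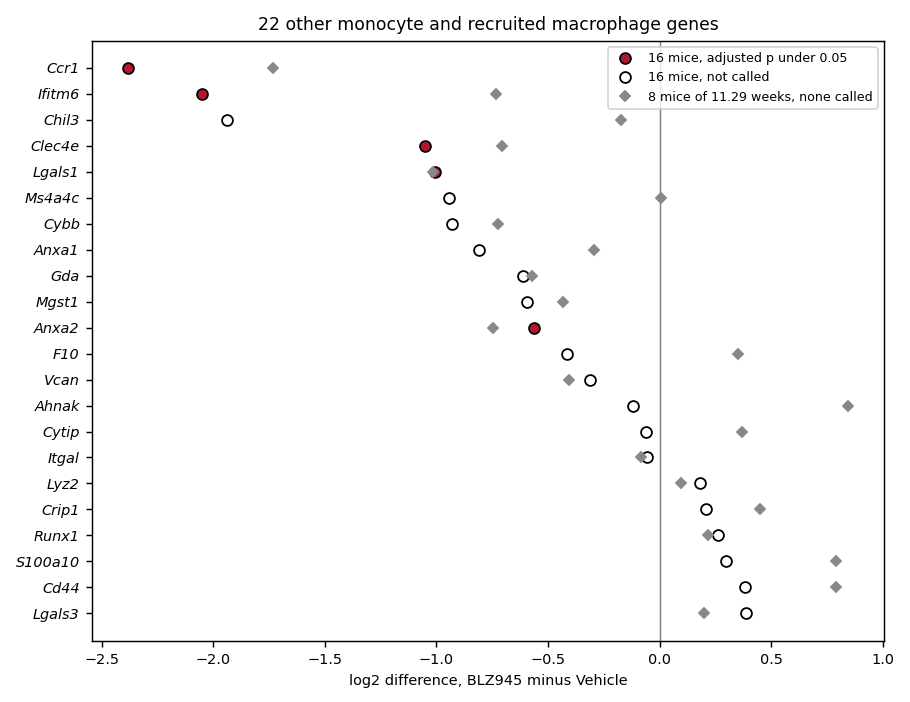
Log2 difference of BLZ945 minus Vehicle (x axis) for 22 other genes of monocytes and recruited macrophages, as circles over 16 mice (filled: adjusted p under 0.05) and as diamonds over the 8 mice of 11.29 weeks. Ccr1, Ifitm6, Clec4e, Lgals1 and Anxa2 are filled, and 16 of the 22 circles lie below 0, against 12 of the 22 diamonds.

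The chemokines that CCR2 and its relatives read were not called. Of 7 measured genes of this list, Ccr1 was the 1 gene that fell and 0 rose. An unadjusted p under 0.05 was found for 4 of the 7 and for 22.6% of all genes. Ccl2, the main CCR2 ligand, was 8.68 ± 1.00 in BLZ945 mice and 9.62 ± 0.37 in Vehicle mice (log2 difference -0.94, adjusted p 0.0954), and Ccl7 differed by -0.89 (adjusted p 0.192). Cxcr4 differed by 0.97 (adjusted p 0.0666). Ccl2, Ccl7 and Cxcr4 were named after their values were seen.

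Among 15 receptors and partners of the members, 3 fell and 0 rose, where 5.34% of all genes were called lower. Cd163, the receptor for haptoglobin bound to haemoglobin, was 3.28 ± 0.29 in BLZ945 mice and 4.69 ± 0.48 in Vehicle mice (log2 difference -1.40, adjusted p 0.000171), and was also called at 11.29 weeks (-1.50, adjusted p 0.0467). Vcam1, the partner of alpha 4 integrins, was 7.31 ± 1.33 in BLZ945 mice and 8.96 ± 0.64 in Vehicle mice (-1.64, adjusted p 0.0317), and Anxa2, which S100 proteins bind, was the third. Cd163 read low on the arrays, whose lower quartiles lay between 3.82 and 4.24. The TGF-beta genes on this list were not called: Tgfb1 differed by -0.35 (adjusted p 0.611), Tgfbr1 by 0.12 (adjusted p 0.565) and Tgfbr2 by 0.21 (adjusted p 0.381). These 3 were named after their values were seen. The median over the 15 genes was 0.11.

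Markers of other cells also differed between the agents over 16 mice, where 5.34% of all genes were called lower. The mean log2 difference was -0.85 over the 9 measured microglia markers, beside -0.92 over the 10 members. Of 9 measured microglia markers, 4 fell and 0 rose, namely Slc2a5 (log2 difference -1.79, adjusted p 0.000232), Tmem119 (-1.64, adjusted p 0.000358), Crybb1 (-1.50, adjusted p 0.00174) and P2ry12 (-1.35, adjusted p 0.00699), and the mean of the 9 was 9.20 to 10.39 in BLZ945 mice and 10.09 to 11.07 in Vehicle mice. Of 11 markers of glioma cells and oligodendrocyte precursors, 5 fell and 0 rose, with Pdgfra at 5.88 ± 0.81 in BLZ945 mice and 8.59 ± 1.02 in Vehicle mice (-2.71, adjusted p 0.000441). Fabp7 (-2.76, adjusted p 0.000995), Ptprz1 (-1.88, adjusted p 0.0027) and Olig1 (-1.95, adjusted p 0.00685) fell too, and the list mean was 4.81 to 6.32 in BLZ945 mice and 5.88 to 7.46 in Vehicle mice. Vim and Fn1 are also expressed by glioma and stromal cells. Of 8 fibroblast and pericyte markers, 7 had a difference below 0 over 16 mice and at 11.29 weeks. Their medians were -0.67 and -1.01, beside -0.89 and -1.50 for Fn1 in the same comparisons. For the older minus the 11.29-week mice, the median was -0.25 within BLZ945, beside 1.33 for Fn1, and -0.95 within Vehicle, beside 0.10. Limma called 0 of the 8 over 16 mice or at 11.29 weeks, with 0 at an unadjusted p under 0.05. The mean of the 8 was 5.62 to 8.28 in BLZ945 mice and 6.03 to 9.17 in Vehicle mice.

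Of 10 measured neutrophil genes, 0 were called between the agents and 0 had an unadjusted p under 0.05. Their mean was 4.51 to 5.25 in BLZ945 mice and 4.23 to 5.68 in Vehicle mice. The 2 brightest varied more: S100a9 was 7.13 ± 0.90 in BLZ945 mice and 7.23 ± 1.95 in Vehicle mice, and S100a8 6.34 ± 0.98 and 6.88 ± 1.63. Between the BLZ945 ages limma called 0 of the 10, and 3 were lower at 13.14 weeks. There 5 of the 10, and 18.7% of all genes, had an unadjusted p under 0.05. Between the agents, 0 of 9 T, NK and B cell genes were called and 1 had a difference below 0. An unadjusted p under 0.05 was found for 7 of the 9 and for 22.6% of all genes. Gzma differed by 1.83 and Nkg7 by 1.02 (adjusted p 0.0506 and 0.0588), and at 11.29 weeks by 3.20 and 1.91 (adjusted p 0.0686 and 0.0712). The mean of the 9 was 4.24 to 5.85 in BLZ945 mice and 3.84 to 4.91 in Vehicle mice. Of 7 platelet and megakaryocyte genes 1 fell and 0 rose: the chemokine Pf4, which macrophages also express, was 6.83 ± 0.73 in BLZ945 mice and 8.40 ± 0.40 in Vehicle mice (-1.57, adjusted p 0.00111) and was called at 11.29 weeks too (-1.92, adjusted p 0.00349). Of 5 astrocyte genes 1 fell and 0 rose: the glycolytic enzyme gene Aldoc was 6.49 ± 0.53 in BLZ945 mice and 8.06 ± 0.48 in Vehicle mice (-1.58, adjusted p 0.000358) and was also called at 11.29 weeks (-1.41, adjusted p 0.0255). The means of these lists were 4.56 to 5.43 and 5.20 to 5.98 in BLZ945 mice, and 4.87 to 5.44 and 5.62 to 6.71 in Vehicle mice. Limma called 0 of 8 endothelial and 0 of 3 erythroid genes, with 2 and 0 at an unadjusted p under 0.05; their means were 5.15 to 5.55 and 3.77 to 4.68 in BLZ945 mice, and 4.95 to 5.74 and 3.69 to 4.33 in Vehicle mice.

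Among 9 genes of dissociation and stress, the heat shock genes Hspa1b (-2.83, adjusted p 0.000247) and Hspa1a (-2.13, adjusted p 0.00123) fell and Atf3 (0.90, adjusted p 0.0107) and Fos (0.49, adjusted p 0.0463) rose. The part of these cells and of handling in the differences of the members was not tested.

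**Figure D4:**
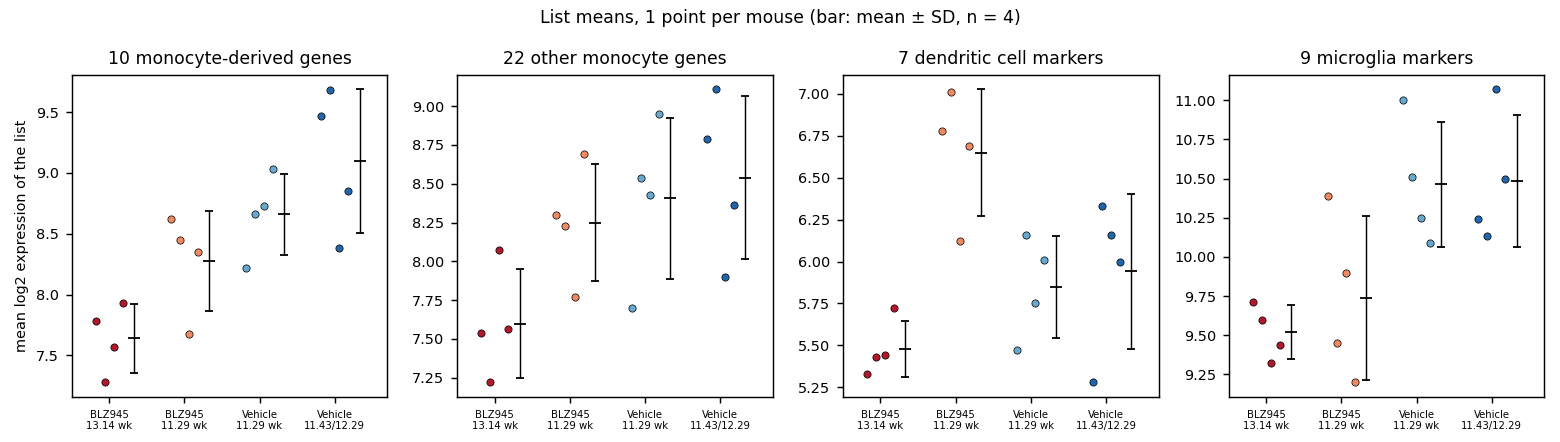
Mean log2 expression per mouse (y axis, a scale of its own per list) of the 10 monocyte-derived macrophage genes, 22 other monocyte genes, 7 dendritic cell markers and 9 microglia markers in the 4 groups of agent and age, with bars for the mean ± SD (n = 4). The first 2 lists had their lowest means in BLZ945 mice of 13.14 weeks (7.64 and 7.60), the dendritic cell markers stood highest in BLZ945 mice of 11.29 weeks (6.65), and the microglia markers were lower in BLZ945 mice of both ages (9.52 and 9.74) than in Vehicle mice (10.46 and 10.48).

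Further probe sets of the same genes bear on how firmly each value can be read; a level is not compared between probe sets. The 3 other Tgfbi probe sets gave log2 differences of -1.64, -1.88 and -1.42 over 16 mice, with adjusted p over 22690 probe sets of 0.000654, 0.000571 and 0.00163. The 2 other Ccr2 probe sets gave -0.98 and -0.76 (limma adjusted p 0.136 and 0.245 over 22690 probe sets). Adjusted in the same way, the Ccr2 probe set used had 0.0544, so no Ccr2 probe set was called there. The 2 other Vim probe sets gave -0.78 and -0.82, close to the -0.77 of the one used. Itga4 gave -0.39 and 0.00, Fn1 -0.45 and Thbs1 0.03 on their other probe sets, and Hp, Plac8, S100a4 and S100a6 had 1 probe set each.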

How the data were processed

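Cells were sorted from 16 gliomas and profiled on 1 array per mouse. The deposited values are log2 expression per probe set, as their range shows. Per the submitters' processing notes, GCOS 1.4 and RMA were used. Neither the version of RMA nor a genome build is given in the sources used here. The step each performed is not stated. Scanner files were not analysed here, and no probe set was called above background. Precision is limited by the number of arrays. Whether each array is a separate animal rests on the labels.

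Probe sets were named through the platform annotation: 20393 carried 1 symbol, 691 several and 1606 none. Each of 12394 genes was tested on the probe set that was brightest on average, with no filter on dim genes, in limma 3.58.1 (lmFit and eBayes, R 4.3.3), and p-values were adjusted over all genes by Benjamini-Hochberg with a threshold of 0.05. Intervals are at 95%. Groups were taken from the labelled agent, and age, sex and their combinations gave the further comparisons. Correlations used 100000 permutations. Promoters came from a RefSeq table, which held 7 of the 10 genes. The text names genes from these sets: the members, up to 4 called genes per other list by p-value or else the 2 with the smallest p, the 2 brightest genes per marker list, and the 5 genes most like Ccr2 or the members' mean. Not all of them are printed, and some genes outside the sets are named too. The members and lists were chosen with earlier results of these data known.

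Tested on simulated data with the 16-mouse design and 12394 genes, the fit recovered 21.7% of genes changed by 0.5, 80.5% by 1 and 100% by 2 on the log2 scale, and with 4 against 4 mice 3.12%, 51.4% and 95.2%. Alternatives covered the choice of probe set, normalization, dim genes, array weights, sex, age, volume, a replicate block and leaving out each mouse.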

Additional observations from a re-analysis of the deposited data

Results flagged for a closer look

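Each of the 10 genes was looked at in each agent's 8 mice for 1 mouse standing apart, by the gap to its nearest neighbour over the range of the group, and 3 of 20 groups reached Dixon's critical value for 8 samples. Chance alone flags about 1 in 20 groups. Tgfbi was 11.35 in BLZ945 mouse 1, against 10.32 in the next BLZ945 mouse, a gap that just reached this value. S100a4 was 9.72 in Vehicle mouse 2, against 7.86 in the next Vehicle mouse (0.648). Plac8 was 11.91 in the same Vehicle mouse 2, against 9.83 in the next (0.668). Vehicle mouse 2 also had the highest Ccr2, Tgfbi, Hp and S100a6 values of its group. Without it, the log2 difference of Ccr2 over 15 mice was -1.47 (adjusted p 0.0777).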

How the results depend on the processing

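The lower Tgfbi values over 16 mice kept their direction in every alternative run. With an array's overall spread (SD) as a covariate, 1644 genes were called, 47.3% of them lower, and 3 other monocyte genes. Repeating the quantile normalization gave 1142 calls, 57.3% of them lower, where the values as deposited gave 984 and 67.3%. Ccr2 lost its call with the mean of its probe sets (-1.13, adjusted p 0.0983), the repeated normalization (0.0574), the array spread (0.093), a trended robust fit (0.0762) and sex as a covariate (0.0517), and in each fit of the next paragraph. Fn1 gained one with the array spread (-1.18, adjusted p 0.041), and Plac8 with array weights (-1.41, adjusted p 0.0423), which called 3 other monocyte genes.

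With the age cohort as a covariate 215 genes, 1 member and 0 other monocyte genes were called, and S100a4 (0.83), S100a6 (0.21) and Thbs1 (-0.25) changed sign. With tumour volume over 14 mice the counts were 15, 0 and 0, and S100a4 (0.62) and Plac8 (0.05) changed sign. Females alone gave 393, 1 and 3, and males alone 2, 0 and 0, with S100a6 at 0.41 and Thbs1 at -0.27. Without the BLZ945 mice of 13.14 weeks the counts were 247 genes and 1 other monocyte gene, and S100a4 (0.22), S100a6 (0.10) and Thbs1 (-0.18) changed sign. Thbs1 was also at -0.08 with the array spread and -0.04 with sex, and Itga4 at 0.00 on its dimmest probe set. The subsets hold fewer mice; otherwise the cause was not tested.

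At 11.29 weeks, sex as a covariate gave 57 calls and Plac8 at 0.02, the repeated normalization put Plac8 at 0.00, and the array spread put Itga4 at 0.13 and Thbs1 at 0.04. The 4 groups of agent and age in 1 fit gave 238 calls and 1 member there, and 117 calls between the BLZ945 ages. Between those ages the mean of all probe sets gave 1 call, leaving out dim genes 3 and the array spread 0, with Thbs1 at -0.16.

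Without 1 mouse at a time, 710 to 1188 genes, 2 to 4 members and 3 to 6 other monocyte genes were called over 16 mice, 15 to 83 genes and 0 to 1 members at 11.29 weeks, and 0 to 16 genes and 0 to 1 members between the BLZ945 ages. Over 16 mice Thbs1 ran from -0.15 to 0.22. At 11.29 weeks Ccr2 ran from -0.64 to 0.02, Itga4 from -0.53 to 0.01, Plac8 from -0.39 to 0.41 and S100a6 from -0.32 to 0.43. Between the BLZ945 ages Tgfbi ran from -0.65 to 0.01.

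BLZ945 and Vehicle mice share replicate numbers 1 to 8. Same-numbered mice correlated at -0.48 to 0.39 in their deviations from the group means, with 5 of 8 pairs above 0.1, so the numbers were not taken to pair the mice. With the number as a replicate block, 873 genes, 5 members and 4 other monocyte genes were called; the members added were Vim (-0.77, adjusted p 0.0217) and Plac8 (-1.48, adjusted p 0.0281).

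The labels confound agent with age and tumour volume, and 4 mice of each agent share an age. The arrays give no count or detection value, so dim genes such as Hp and Cd163 cannot be set against background.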

Other observations

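One more probe set is annotated to Thbs1 together with Pald1 and was left out of the gene's values. It averaged 9.39 ± 0.53 in BLZ945 mice and 9.36 ± 1.06 in Vehicle mice (log2 difference 0.04, adjusted p 0.964 over 22690 probe sets). Its highest value was 11.22, in Vehicle mouse 1, which also had the highest Thbs1, Vim and Fn1 values of its group.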
